A study of Mus musculus with 7 samples.

Results

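The endoplasmic reticulum (ER) chaperones and the transcription factor gene Xbp1 were followed as 10 genes, taken by symbol from a table of 35641 genes in 7 RNA-seq libraries of sorted mouse lung cells. The genes are Hspa5, Hsp90b1, Pdia3, Pdia4, Pdia6, Calr, Canx, Dnajb9, Herpud1 and Xbp1, and each matched 1 row. The libraries came from female C57BL6 mice, 4 libraries of a group called HF and 3 of a group called LF. The labels neither spell out these names nor give the age of the mice, and the study's title concerns obesity. Cells of both groups were sorted as neutrophils on CD45, CD11b and Ly6G with low Ly6C, and RNA was amplified with a SMART-Seq kit, made for small inputs. Values are the authors' normalized counts, and differences are HF minus LF on the log2(normalized count + 1) scale.

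Proteins that are secreted, shed or held in membranes fold in the ER. Hspa5 (BiP) and Hsp90b1 (Grp94) bind unfolded chains there, Calr and Canx hold glycoproteins by their sugars, and the disulfide isomerases Pdia3, Pdia4 and Pdia6 make and reshuffle disulfide bonds. When unfolded protein builds up, the sensors Ern1 (IRE1), Atf6 and Eif2ak3 (PERK) start the unfolded protein response. IRE1 splices Xbp1 mRNA, which then encodes an active factor, and many chaperone genes are raised through ER stress elements in their promoters. Plasma cells and other secretory cells are known for high levels of this machinery.

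The promoters are shown first because 6 of the 10 genes carry a stress element known to be bound by ATF6 together with NF-Y, so that the letters they share can be read beside their values. RefSeq promoters (build GRCm38.p6, 250 bases before to 50 after an annotated start) were found for all 10 genes. The ER stress element, searched on both strands as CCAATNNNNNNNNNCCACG, was in the promoters of 5 genes, with 2 copies in that of Hsp90b1. It was present in 39 of 32851 promoters (0.119%). The shorter ER stress element II, ATTGGNCCACG, was in the promoter of Herpud1 and in 0.0365% of all promoters. Every copy of the first element also contains a plain CCAAT box, which 37.4% of promoters hold. These are matches of letters, and no binding was measured. The copies follow 5′ to 3′ in the direction of the motif, with the fixed letters in capitals.
Hspa5: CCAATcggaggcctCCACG
Hsp90b1, far element: CCAATcgcaaggagCCACG
Hsp90b1, near element: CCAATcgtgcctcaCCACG
Pdia6: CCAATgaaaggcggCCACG
Calr: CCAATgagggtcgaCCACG
Canx: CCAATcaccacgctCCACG
Herpud1: ATTGGgCCACG

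They lie at chr2:34772025-34772043 on the + strand (Hspa5), at chr10:86705638-86705656 on the - strand and chr10:86705533-86705551 on the + strand (Hsp90b1), at chr12:17266491-17266509 on the + strand (Pdia6), at chr8:84847075-84847093 on the + strand (Calr), at chr11:50325800-50325818 on the - strand (Canx) and at chr8:94386377-94386387 on the + strand (Herpud1). The element of Hspa5 ends 47 bases before the start and that of Herpud1 42 bases before it. The far copy of Hsp90b1 begins 212 bases before the start. The copy of Calr and the near copy of Hsp90b1 run against the direction of their gene. Neither element was found for Pdia3, Pdia4, Dnajb9 or Xbp1, which says only that these letters are not in the window.

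**Figure D1:**
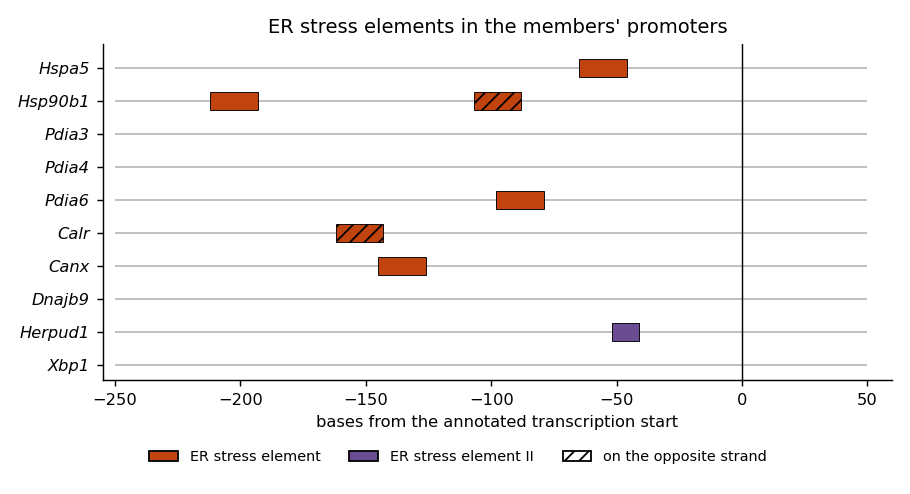
Positions of the ER stress element and the ER stress element II in the promoters of the 10 genes, in bases from the annotated transcription start (horizontal axis, 0 at the start), with hatched boxes for copies on the strand opposite to the gene. The element of Hspa5 lies 65 to 47 bases before the start, and Hsp90b1 is the one gene with 2 copies.

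The 250 bases before the start are printed for Hspa5 and Hsp90b1, which carry the same element and differed in how their level compared between the groups, and for Dnajb9, the gene that was higher in HF. Capitals mark the fixed letters of the element, which for the near copy of Hsp90b1 read as its reverse complement. The stretches are chr2:34771840-34772089 on the + strand, chr10:86705445-86705694 on the - strand and chr12:44210069-44210318 on the - strand.
Hspa5: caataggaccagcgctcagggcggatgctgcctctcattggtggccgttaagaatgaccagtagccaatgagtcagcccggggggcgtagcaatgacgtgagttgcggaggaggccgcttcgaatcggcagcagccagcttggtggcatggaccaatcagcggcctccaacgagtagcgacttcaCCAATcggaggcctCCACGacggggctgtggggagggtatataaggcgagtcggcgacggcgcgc
Hsp90b1: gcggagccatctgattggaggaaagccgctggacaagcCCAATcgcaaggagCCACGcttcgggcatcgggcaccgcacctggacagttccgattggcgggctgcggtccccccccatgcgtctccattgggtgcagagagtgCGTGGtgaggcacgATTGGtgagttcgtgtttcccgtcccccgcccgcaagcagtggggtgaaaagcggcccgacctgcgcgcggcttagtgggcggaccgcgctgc
Dnajb9: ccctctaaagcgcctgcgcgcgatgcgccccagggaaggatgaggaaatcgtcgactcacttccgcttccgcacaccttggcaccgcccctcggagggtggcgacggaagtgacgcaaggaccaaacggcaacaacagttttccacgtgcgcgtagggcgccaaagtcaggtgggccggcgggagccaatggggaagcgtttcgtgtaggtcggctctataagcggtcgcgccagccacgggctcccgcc

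The LF columns are numbered 6, 7 and 8 and went against their sort label, so they are named LF6, LF7 and LF8 and called the libraries labelled LF, or LF-labelled libraries. Summed over 14 neutrophil markers, normalized counts ranged from 445190 to 601660 in HF and from 13020 to 14400 in the LF-labelled libraries, and each of the 14 was above in all HF libraries (13 passed limma's test, described below). Summed over 14 monocyte and macrophage markers the ranges were 30298 to 39340 and 141560 to 151720, and 11 genes were below in all HF libraries. No marker of either list was at 0 in all libraries of a group. Total reads assigned to genes ranged from 13943173 to 18983351. All differences below are between HF libraries and libraries that also differ in these markers, and the part of the markers in each difference was not tested. In bulk libraries, fewer cells of a type and less RNA per cell cannot be told apart.

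Most of the 10 genes were lower in HF. All 10 genes passed the filter on low values (a mean of at least 10 normalized counts), with 142 to 15764 reads per gene and library. Of the 10, 7 were lower in HF, 1 was higher and 2 did not pass limma's test at an adjusted p of 0.05. Over all 14936 genes tested, 55.0% passed, with 28.7% lower and 26.2% higher in HF. The groups did not overlap in 8 of the 10 genes, against 62.2% of all genes tested. The median difference of the 10 was -1.40, against -0.16 over all genes tested. The 10 genes held 0.179 ± 0.0121% of the reads in HF (SD, n = 4) and 0.434 ± 0.0285% in the LF-labelled libraries (SD, n = 3), with HF libraries at 0.163 to 0.193% and the others at 0.413 to 0.467%.

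**Figure D2:**
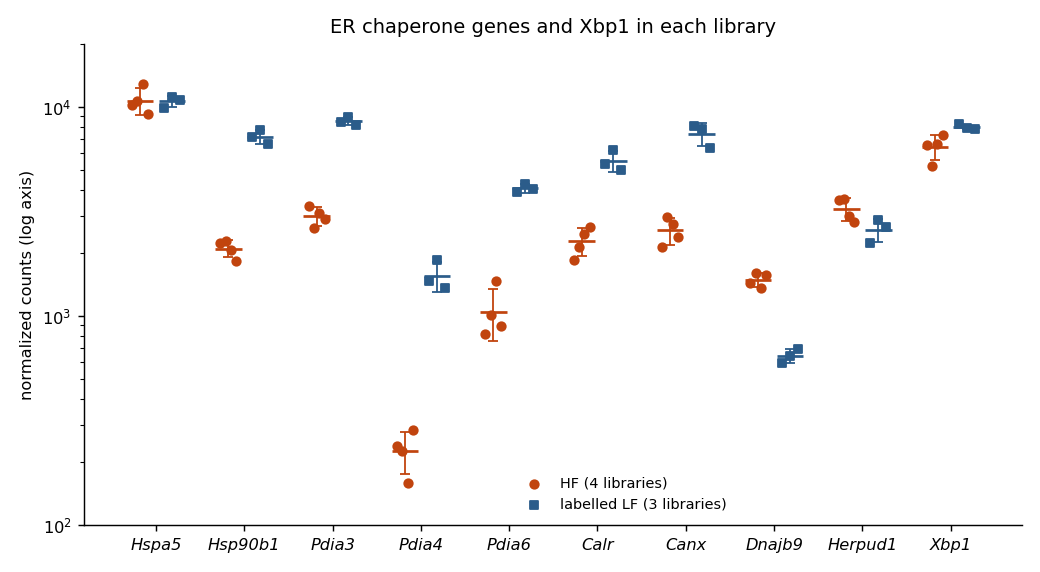
Normalized counts (vertical log axis) of the 10 genes in each of the 4 HF libraries (circles) and the 3 libraries labelled LF (squares), with bars for the mean and the SD. The groups are apart for 8 genes and overlap for Hspa5 and Herpud1, and Dnajb9 is the one gene with HF wholly above.

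Hspa5 (ENSMUSG00000026864), the ER member of the Hsp70 family, which also holds the stress sensors inactive, stood at 10171, 10622, 12851 and 9248 in HF replicates 1 to 4. In LF6, LF7 and LF8 it stood at 9932, 11193 and 10798. The groups overlapped, and the lowest and the highest value were both in HF. The difference was 0.00 ± 0.11 (SE), with a 95% interval of -0.25 to 0.25 (limma adjusted p = 0.987). That interval depends on the scaling between libraries. With equal library totals Hspa5 was lower in HF, at -0.52 (limma adjusted p = 0.00637), and after quantile normalization at -0.89 (0.00036), with adjusted p from 0.00036 to 0.99 over the alternatives. Equal totals moved the median of all genes by -0.54, from -0.16 to -0.70, so under that scaling too Hspa5 lay above the median gene. After quantile normalization it lay below it, since the median was then -0.08.

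Hsp90b1 (ENSMUSG00000020048), the ER member of the Hsp90 family, which folds integrins and Toll-like receptors, stood at 2226, 2271, 2069 and 1838 in HF replicates 1 to 4. It stood at 7162, 7745 and 6660 in LF6, LF7 and LF8. Every HF library lay far below every LF-labelled one, with a ratio of means of 3.42 (LF over HF). The difference was -1.78 ± 0.10 (SE, limma adjusted p = 2.76e-06).

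The scaling between libraries cancels in a ratio of genes within a library. Hspa5 over Hsp90b1 was 4.57, 4.68, 6.21 and 5.03 in HF replicates 1 to 4 and 1.39, 1.45 and 1.62 in LF6, LF7 and LF8. So this ratio was higher in every HF library than in every LF-labelled one. Its means were 5.12 ± 0.753 (SD, n = 4) and 1.48 ± 0.122 (SD, n = 3). The exact 2-sided permutation test used here doubles the p of the smaller tail. In that form it cannot give less than 0.0571 over 4 and 3 libraries, which this ratio reached (adjusted p = 0.129 over 9 ratios computed). Such a ratio shows that the genes did not keep step, not which of them moved.

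**Figure D3:**
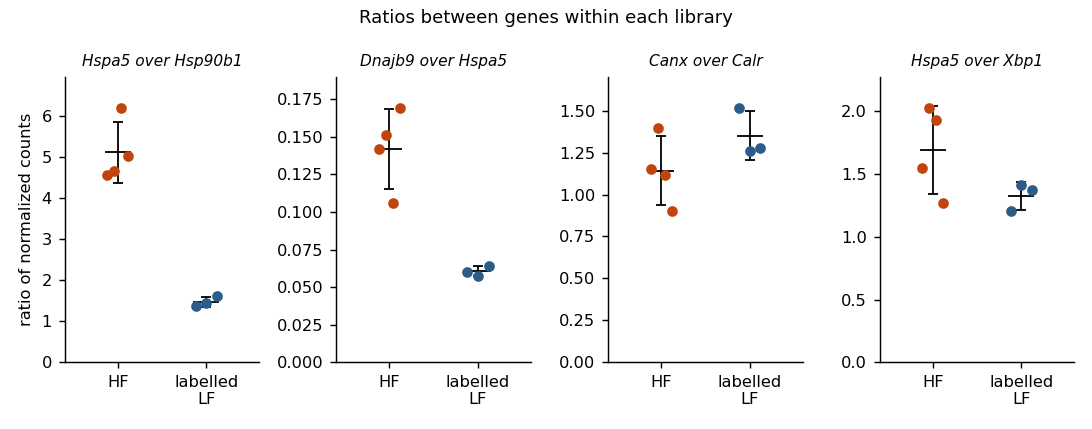
Ratios of normalized counts of gene pairs within each library (vertical axes, from 0), for HF and the LF-labelled libraries, with the mean and SD in black. Hspa5 over Hsp90b1 and Dnajb9 over Hspa5 are apart between the groups, while Canx over Calr and Hspa5 over Xbp1 overlap.

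Dnajb9 (ERdj4, ENSMUSG00000014905), a J-domain partner of Hspa5 that brings it to misfolded chains and to IRE1, went the other way. It stood at 1441, 1605, 1359 and 1565 in HF replicates 1 to 4 and at 597.9, 644.1 and 691.1 in LF6, LF7 and LF8. All HF libraries lay above all others, and the spread was small in both groups, with coefficients of variation of 7.57% and 7.23%. The difference was 1.21 ± 0.11 (SE, limma adjusted p = 5.04e-05), and it stayed positive with equal library totals, at 0.69 (0.00116). The adjusted p ranged from 3.18e-22 to 0.00116 over the alternatives. Dnajb9 over Hspa5 was 0.142, 0.151, 0.106 and 0.169 in HF and 0.0602, 0.0576 and 0.0640 in the LF-labelled libraries, again without overlap (exact permutation p = 0.0571, adjusted p = 0.129 over 9 ratios). Against Hsp90b1 the same ratio averaged 0.716 ± 0.0942 (SD, n = 4) and 0.0901 ± 0.0118 (SD, n = 3).

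Both lectin chaperones were lower in HF. Calr (ENSMUSG00000003814), which is soluble in the ER lumen, stood at 1859, 2136, 2461 and 2649 in HF replicates 1 to 4 and at 5325, 6200 and 4989 in LF6, LF7 and LF8. The membrane-bound Canx (ENSMUSG00000020368) stood at 2136, 2988, 2755 and 2382, against 8076, 7799 and 6369. Both were lower in every HF library, by differences of -1.28 ± 0.14 and -1.54 ± 0.14 (SE, limma adjusted p = 0.000118 and 4.17e-05). Canx over Calr ran from 0.899 to 1.40 in HF and from 1.26 to 1.52 in LF6, LF7 and LF8, so the ranges overlapped (exact permutation p = 0.229, adjusted p = 0.257 over 9 ratios). In the doubled form used here, with these numbers of libraries, the test cannot reach 0.05. So it does not show that both genes differed by the same amount. The pseudogene Calr-ps, named after its values were seen, reached at most 2.25 normalized counts in any library.

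Pdia3 (ERp57, ENSMUSG00000027248), the isomerase that works with Calr and Canx, stood at 3350, 2620, 3116 and 2899 in HF replicates 1 to 4. Its values in LF6, LF7 and LF8 were 8502, 8944 and 8213. The groups were far apart, with a ratio of means of 2.85 (LF over HF) and a difference of -1.52 ± 0.09 (SE, limma adjusted p = 5.07e-06). Pdia3 over Hsp90b1 overlapped between the groups, at 1.44 ± 0.191 (SD, n = 4) and 1.19 ± 0.0393 (SD, n = 3) (log2 difference 0.26, exact permutation p = 0.229, adjusted p = 0.257 over 9 ratios).

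Pdia4 (ERp72, ENSMUSG00000025823), an isomerase found in complexes with Hspa5, had the largest difference of the 10 genes on the deposited scaling. It stood at 237.5, 226.3, 159.2 and 283.5 in HF replicates 1 to 4 and at 1462, 1850 and 1360 in LF6, LF7 and LF8. The ratio of means was 6.87 (LF over HF) and the difference was -2.79 ± 0.22 (SE, limma adjusted p = 2.07e-05). Pdia6 (P5, ENSMUSG00000020571), which also limits IRE1 signalling, stood at 815.0, 1008, 1470 and 899.2 in HF replicates 1 to 4 and at 3914, 4288 and 4042 in LF6, LF7 and LF8. Here HF replicate 3 was well above the other HF libraries, which gave the largest coefficient of variation of the 10 genes in HF (27.9%, against 4.66% in the LF-labelled libraries). The difference was -1.997 ± 0.19 (SE, limma adjusted p = 6.25e-05).

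Herpud1 (ENSMUSG00000031770), a membrane protein that assembles the ER degradation complex and has an ER stress element II in its promoter, stood at 3575, 3637, 2999 and 2829 in HF replicates 1 to 4. In LF6, LF7 and LF8 it stood at 2227, 2864 and 2667. Only HF replicate 4 fell below an LF value, that of LF7. The difference was 0.33 ± 0.13 (SE), with a 95% interval of 0.04 to 0.63, and it did not pass (limma adjusted p = 0.0567). It passed without HF replicate 4 (0.0328), with DESeq2 (0.0317) and when only genes of mean 50 or more were tested (0.0457). It turned to -0.19 with equal library totals (0.303) and to -0.12 after quantile normalization (0.491), and the adjusted p ran from 0.0317 to 0.491 over the alternatives.

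Xbp1 (ENSMUSG00000020484), the factor that IRE1 activates by splicing, stood at 6555, 5234, 6667 and 7299 in HF replicates 1 to 4 and at 8254, 7928 and 7871 in LF6, LF7 and LF8. Each HF value lay below each of the others, yet the gap between HF replicate 4 and LF8 was small. The difference was -0.33 ± 0.11 (SE, limma adjusted p = 0.0337). The call was lost without HF replicate 1 (0.0543), LF6 (0.106), LF7 (0.0828) or LF8 (0.0797) and with no filter on low values (0.0656), and the adjusted p ran from 6.95e-06 to 0.106 over the alternatives. With equal library totals the difference was -0.85 (limma adjusted p = 9.97e-05), and after quantile normalization -1.09 (6.95e-06). Gene-level counts do not separate spliced from unspliced Xbp1 mRNA, so the active form was not measured. Hspa5 over Xbp1 overlapped between the groups, at 1.69 ± 0.351 (SD, n = 4) and 1.33 ± 0.111 (SD, n = 3; exact permutation p = 0.171, adjusted p = 0.257 over 9 ratios).

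**Figure D4:**
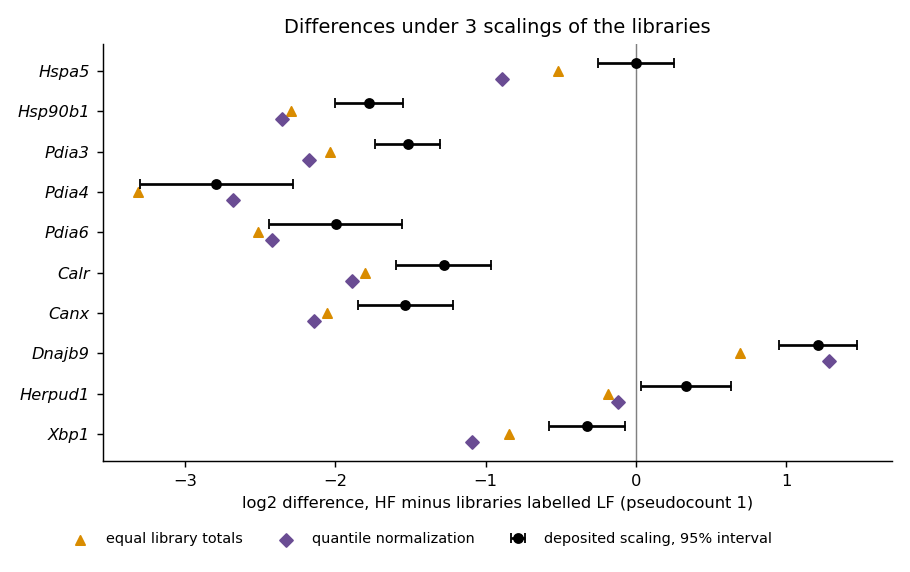
Log2 differences, HF minus the LF-labelled libraries (horizontal axis), of the 10 genes with the deposited scaling (black, 95% interval), with equal library totals (triangles) and after quantile normalization (diamonds). Xbp1 and the 6 genes from Hsp90b1 to Canx lie below 0 under all 3 scalings, and Dnajb9 lies above 0 under all 3. Hspa5 and Herpud1 do not keep their sign.

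Levels of different genes were compared per kilobase of merged exons (GENCODE M21), since longer genes collect more reads. In HF, Hspa5 came first at 2536 ± 362 normalized counts per kilobase (SD, n = 4) and Xbp1 next at 1982 ± 267, with overlapping ranges, then Herpud1 at 1397 ± 174, apart from both. Pdia3 and Calr followed with overlapping ranges, and after them Dnajb9, Canx and Hsp90b1, in which each gene overlapped the next. Pdia6 and Pdia4 came last, each apart from the gene before, at 280 ± 78.0 and 94.5 ± 21.4. The order was not the same in the LF-labelled libraries. There Pdia3 at 2725 ± 117, Hspa5 at 2516 ± 153 and Xbp1 at 2469 ± 63.7 (SD, n = 3) were at the top, each overlapping the next. Calr, Hsp90b1 and Canx followed, then Herpud1 with Pdia6, then Pdia4. Dnajb9 was lowest at 253 ± 18.3, apart from Pdia4. Dnajb9 thus stood in the same range as Canx and Hsp90b1 in HF, and below every other of the 10 genes in the LF-labelled libraries.

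The genes that work with these chaperones were counted in 5 lists. Over all genes tested, 28.7% were lower and 26.2% higher in HF, with a median of -0.16. Of 25 tested cofactors and foldases, 19 were lower in HF and 1 was higher, with a median of -1.17. The oxidoreductases Txndc5 and P4hb, and the ER peroxiredoxin Prdx4, differed by -3.97 ± 0.27, -1.78 ± 0.14 and -2.90 ± 0.25 (SE, limma adjusted p = 9.05e-06, 2.35e-05 and 3.69e-05). Txndc5 averaged 148.5 in HF and 2226 in the LF-labelled libraries. The other partners of Hspa5, named after their values were seen, did not follow Dnajb9. The J-domain proteins Dnajb11 and Dnajc3 were lower by -1.06 and -1.17, the co-chaperone Sdf2l1 by -3.51 and the exchange factor Sil1 by -2.67 (limma adjusted p = 4.99e-05, 8.14e-05, 0.000399 and 0.000158). The other exchange factor, Hyou1, stood at 0, 357.4, 56.1 and 55.2 in HF replicates 1 to 4 and at 552.2, 663.6 and 424.0 in LF6, LF7 and LF8. The groups were apart, and the test was not passed (limma adjusted p = 0.0752). It was passed under 5 of 17 alternatives, among them those without HF replicate 1 (0.0295) or HF replicate 2 (0.0268), with 0.0145 to 0.226 over all of them.

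Of 12 tested genes of the glycoprotein folding cycle, which attach and trim the sugars that Calr and Canx read, 10 were lower and 1 was higher, with a median of -1.46. Rpn1, Rpn2 and Dad1, subunits of the oligosaccharyltransferase, differed by -1.83, -2.22 and -1.60, and its catalytic subunit Stt3a by -1.32 (limma adjusted p = 2.24e-06, 3.68e-06, 1.15e-05 and 2.67e-05). Of 19 genes of translocation into the ER, 13 were lower and 2 were higher, with a median of -0.88, with 16 and 0 under equal library totals and 14 and 1 after quantile normalization. The signal peptidase subunit Spcs3 differed by -2.14, the translocon-associated Ssr3 and Ssr2 by -1.69 and -1.80, and Tram1 by -0.62 (limma adjusted p = 8.02e-06, 6.89e-06, 2.67e-05 and 0.000117). Monocyte and macrophage markers, summed, were also lower in every HF library.

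The degradation genes were split, and so were all genes tested (28.7% lower, 26.2% higher, median -0.16). Of 17 tested, 5 were lower and 3 were higher, with a median of -0.20, and with equal library totals 11 were lower and 2 higher. After quantile normalization 8 were lower and 3 higher. Herpud2, the homologue of Herpud1, was higher by 1.30 ± 0.10 (SE, limma adjusted p = 1.8e-05). The mannosidase-like Edem3 and Edem1, which pass misfolded glycoproteins on for degradation, were lower, at -0.96 and -0.20 (limma adjusted p = 0.0012 and 0.0236). The call of Edem1 was lost with no filter on low values (0.0613) and without LF6 (0.095), LF7 (0.0714) or LF8 (0.0815), and the adjusted p ran from 1.95e-06 to 0.095 over the alternatives. The core of the complex, named after its values were seen, was not called as 1 unit: Syvn1 was higher by 0.48 (limma adjusted p = 0.00931, and -0.04 with 0.805 under equal library totals), and Sel1l, at -0.39, did not pass (0.0773). Sel1l passed under 4 alternatives, among them that without HF replicate 3 (0.0462), with 0.000547 to 0.218 over all 17.

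The sensors split as well. Of 15 tested sensors and factors, 6 were higher and 6 were lower, with a median of 0.15, with 4 and 7 under equal library totals and 5 and 6 after quantile normalization. Eif2ak3 (PERK) stood at 2603, 2425, 2536 and 2368 in HF replicates 1 to 4 and at 779.2, 848.3 and 763.0 in LF6, LF7 and LF8, wholly apart. Its difference was 1.64 ± 0.09 (SE, limma adjusted p = 2.68e-06). Ern1 and Atf6, named after their values were seen to complete the sensors, were lower, at -1.31 ± 0.23 and -1.36 ± 0.15 (SE, limma adjusted p = 0.0016 and 0.000129). Mbtps1, a protease that cuts Atf6 during its activation, was lower too, at -1.17 (0.000106). Downstream of PERK, the factor Ddit3 (CHOP) averaged 1388 and 161.6 and was higher by 3.11 ± 0.16 (SE, limma adjusted p = 1.71e-06), and Atf4, named after its values were seen, by 0.80 (0.000155). The phosphatase subunit Ppp1r15a was higher by 0.89 (0.00507), a call lost under equal totals (0.158) and under quantile normalization (0.117), with 1.37e-05 to 0.158 over all alternatives.

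**Figure D5:**
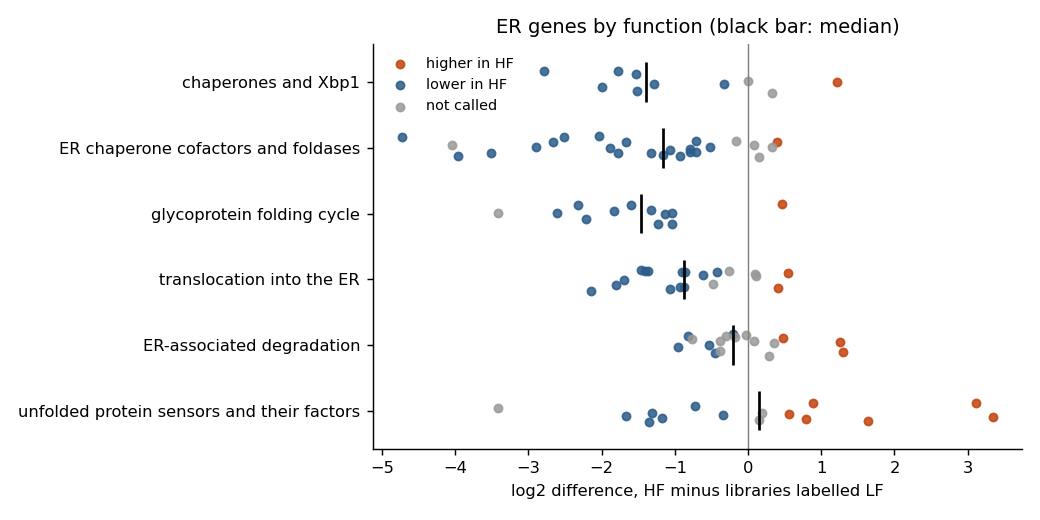
Log2 differences, HF minus the LF-labelled libraries (horizontal axis), of the 10 genes and of 5 lists of ER genes, 1 point per tested gene, coloured by limma call, with a black bar at each median. The medians of the chaperone, glycoprotein and translocation lists lie at -1.17, -1.46 and -0.88, and those of degradation and of the sensors at -0.20 and 0.15.

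Genes sharing the ER stress element were described over the whole table. The 39 promoters belong to 37 genes, of which 15 were tested, 8 of them called lower and 4 called higher in HF, with a median of -0.94. Outside the 10 genes, 10 of 32 were tested, and 4 were lower and 4 were higher, with a median of -0.29. Within the 10 genes, those with the element differed by 0.00 (Hspa5), -1.78 (Hsp90b1), -1.997 (Pdia6), -1.28 (Calr) and -1.54 (Canx). Those without a match in the window differed by -1.52 (Pdia3), -2.79 (Pdia4), 1.21 (Dnajb9) and -0.33 (Xbp1). Herpud1, with the ER stress element II only, differed by 0.33.

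Markers of plasma cells, which are rich in this machinery, did not separate the groups as a list. Of 10 tested plasma and B cell markers, limma called 2 lower and 0 higher in HF (3 and 1 after quantile normalization), and their summed counts ranged from 5970 to 12673 in HF and from 8370 to 8996 in the LF-labelled libraries. The lower ones were Prdm1, the factor of plasma cell fate, at -2.31 (limma adjusted p = 0.000876), and the syndecan gene Sdc1 at -5.08 (0.0181). The call of Sdc1 was lost with edgeR (0.0552 with the authors' scaling) and without LF7 (0.0566) or LF8 (0.0637), from a range of 0.00357 to 0.0637, and its means were 16.7 (HF) and 199.9 (LF). The immunoglobulin gene Ighm had means of 6346 and 5938 with no call (limma adjusted p = 0.849), and its difference of 0.05 turned to -0.47 with equal library totals (0.0863) and to -0.74, called lower in HF, after quantile normalization (0.0103), with 0.0103 to 0.977 over the alternatives. Of 10 dendritic cell markers, 5 were lower and 0 were higher. Irf8, Flt3 and Batf3 differed by -4.51, -3.36 and -2.95 (limma adjusted p = 3.63e-06, 0.000129 and 0.000321). Of 6 eosinophil markers, 4 were higher, among them Siglecf and Ccr3 at 4.86 and 3.67, and Ear2 was lower at -2.11 (limma adjusted p = 4.65e-05, 8.43e-05 and 1.84e-05). The part of these cells in the chaperone levels was not tested.

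The authors' deposited table gives the same sign for all 10 genes. It lists log2 fold changes (HF over LF) of 0.01 for Hspa5, -1.77 for Hsp90b1, -2.78 for Pdia4 and 1.21 for Dnajb9. For Herpud1 the authors' deposited table has an adjusted p of 0.0587, and for Xbp1 one of 0.0374.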

How the data were processed

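Sorted mouse lung cells gave 4 HF and 3 LF libraries. Per the submitters' processing notes STAR 2.6.1b, featureCounts 1.6.3 and DESeq2 1.20.0 were used. For build, annotation and strand: not given in the sources used here. The authors deposited normalized counts (unit: signal). In each library 100% of values were whole multiples of 1 read's worth (tolerance 0.01), which gave back the reads, and edgeR on them called 7624 genes, against 8211 by limma. Per the file headers there are also log2 fold changes, a test score and p-values, printed only beside the words "authors' deposited table".

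HF columns match the titles of HF replicates. LF columns carry numbers that match no title and were taken as libraries of that group; 0 library columns were left out. Genes with a mean of at least 10 were put on the log2(normalized count + 1) scale and tested by limma 3.58.1 (R 4.3.3, trend), with Benjamini-Hochberg adjustment across all 14936 genes tested at 0.05. Alternatives were pseudocounts of 0.5 and 5, other filters, 2 other scalings, array weights, edgeR 4.0.16 and DESeq2 1.42.0 on the reads, and leaving out libraries in turn. Ratios used an exact permutation test, with the p of the smaller tail doubled (scipy 1.17.1). The median chi-square per gene was 2.29 to 3 for pairs of LF libraries and 12.1 to 16.2 for pairs of HF libraries, against 0.455 for sampling noise alone. So no pair was the same library deposited again, and whether libraries are repeat preparations of 1 sample was not tested. On simulated data for HF against LF (14936 genes) limma recovered 6%, 62%, 100% and 100% of changes of 1.5-, 2-, 4- and 8-fold with 4 false calls. The simulation changed few genes and gave every gene the same dispersion, unlike these data, so these shares are not the power of this comparison. Nothing says how the libraries of a group relate, so a p-value reflects their spread, which may be technical.

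The members and lists were chosen with earlier results of these data known. Names were drawn from the 10 genes, the 3 genes of lowest p and the 1 of highest mean in each list, and the 3 nearest profiles of Hspa5 and Xbp1; others are marked as named after their values were seen. List symbols missing from the table (4) were left out. Promoters are from RefSeq, gene lengths from GENCODE M21. A gene that the naming rule gives is not reported here.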

Additional observations from a re-analysis of the deposited data

Results flagged for a closer look

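Among the 55 named genes, the 4 HF libraries were examined for 1 far from the rest, which chance gives in about 1 in 20 groups. The 10 genes followed here had none. In all, 2 of the 55 genes were flagged, which is not more than that rate gives. Both encode exchange factors of Hspa5. Sil1, low in all HF libraries, stood at 47.3 in HF replicate 1, against 29.6 to 31.4 in the others. Hyou1 stood at 357.4 in HF replicate 2.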

How the results depend on the processing

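Of the 10 genes, 7 (Hsp90b1, Pdia3, Pdia4, Pdia6, Calr, Canx and Dnajb9) kept their direction and their side of the threshold under all 17 alternatives. Of 45 other named genes 37 did. The count of the 10 genes called stayed between 7 and 9, and that of the 5 pathway lists, 66 in all, between 57 and 74. The number higher in HF was 1 and became 2 among genes of mean 50 or more and with DESeq2, and was 1 to 2 with single libraries left out. The median difference of the 10 was -1.92 under equal totals and -2.01 under quantile normalization. Hspa5, near 0, changed sign with equal totals (-0.518), quantile normalization (-0.889), array weights (-0.0168) and TMM (-0.0121), and ran from -0.0882 to 0.0700 with single libraries left out. Herpud1 turned to -0.186 and -0.122 under the other scalings, Syvn1 to -0.0370 with equal totals, and Ighm to -0.468 and -0.737, with -0.0889 to 0.242 when single libraries were left out. Equal totals moved the median gene by -0.543, and the share of calls higher in HF from 47.7% to 29.7%; no other cause was tested. No paired analysis was possible because the LF columns carry no replicate number of the labels. With 4 and 3 libraries, changes of 1.5-fold were rarely called on simulated data (6%). Far fewer genes were changed there than the 55.0% that passed here, so that share does not give the power of this comparison. What can be said of Hspa5, Herpud1 and Xbp1 is limited, since their signs or calls depended on the scaling or on single libraries.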

Other observations

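Among 9575 other genes with a mean of at least 50, the profiles nearest to Hspa5 over the 7 libraries, by root mean square distance of centred log2 values, were those of Stambpl1, Nfx1 and Tbc1d17 (0.0438, 0.0609 and 0.0690). Their differences were -0.06, -0.10 and 0.05, and none passed (limma adjusted p = 0.727, 0.494 and 0.775). Nearest to Xbp1 were E2f3, Flna and Stx12 (0.0501, 0.0533 and 0.0588). Flna, the actin cross-linker filamin A, averaged 30130 in HF and 39610 in the LF-labelled libraries and was lower (limma adjusted p = 0.00499). E2f3 and Stx12 did not pass (0.261 and 0.0643).

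Within the groups, the coefficient of variation was larger in HF than in the LF-labelled libraries for 9 of the 10 genes, all but Herpud1. It ranged from 7.57% to 27.9% in HF and from 2.58% to 16.6% in the LF-labelled libraries. The wider spread in HF was not particular to the 10 genes. Over all genes compared, the median chi-square was 12.1 to 16.2 for pairs of HF libraries and 2.29 to 3 for pairs of LF libraries. LF7 held the highest value of its group in 7 of the 10 genes and LF8 the lowest in 6. In HF no library was highest in more than 4.

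Calr4, a relative of Calr with an ER stress element in its promoter (named after its values were seen), averaged 98.5 in HF and 2.89 in the LF-labelled libraries, a difference of 4.97 (limma adjusted p = 0.000721), opposite in direction to Calr.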
